A study of Mus musculus with 4 samples.

Results

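The 93 genes described here bear the symbols of subunits of the oxidative phosphorylation machinery or of their relatives, 13 from the mitochondrial genome and 80 from the nuclear genome. Some subunits fall outside the rule, and Ndufb1-ps is annotated as a non-coding RNA. They were chosen by symbol alone, as all symbols in the count table that begin with mt-Nd, mt-Co, mt-Cytb or mt-Atp, with Nduf followed by a, b, c, s or v and a number, with Uqcr, with Cox followed by 4 to 8, or with Atp5, together with Sdha, Sdhb, Sdhc and Sdhd. They make up 93 of the 15093 genes listed. By complex, 44 belong to complex I (7 mitochondrial), 4 to complex II (none mitochondrial), 9 to complex III (1 mitochondrial), 17 to complex IV (3 mitochondrial) and 19 to complex V (2 mitochondrial). The data are single-cell transcriptomes of peripheral blood mononuclear cells (PBMCs) from 4 mice, 2 treated and 2 untreated. All were wild-type C57BL/6 females aged 3.2 ± 0.3 months and all were anaesthetised with ketamine and xylazine. In the treated mice the skin of the left ear received non-thermal plasma (NTP), a partially ionised argon gas from a jet, for 10 min. The untreated mice received the anaesthesia without plasma. Blood was drawn 120 min after the end of plasma exposure from the treated mice, but 120 min from the start of anaesthesia from the untreated mice, so plasma and a longer anaesthesia cannot be told apart. Each result below holds for a single time point and for blood, not for the treated skin.

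Oxidative phosphorylation takes place in the inner mitochondrial membrane. Complex I (NADH dehydrogenase) and complex II (succinate dehydrogenase) feed electrons to ubiquinone, complex III (cytochrome bc1) passes them to cytochrome c, and complex IV (cytochrome c oxidase) passes them to oxygen. Complexes I, III and IV pump protons, and complex V (ATP synthase) uses the proton gradient to make ATP. The mitochondrial genome encodes core subunits of every complex except complex II, while the remaining subunits are made from nuclear genes and imported. In resting blood lymphocytes this pathway supplies much of the ATP, and lymphocytes expand it after activation.

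The table held 5794 cells with 23692981 unique molecular identifiers (UMIs, each standing for one captured transcript end). The median cell had 4480.5 and 3655 UMIs in treated mice 1 and 2, and 4465 and 3104.5 UMIs in untreated mice 1 and 2. Values given for 4 mice below follow this order, and each group therefore held one deeper and one shallower library. The deposited annotation gave the label B cell to 3130 cells, CD4+ T cell to 1517, CD8+ T cell to 600, plasmablast to 474 and NK to 73, and 4 cell barcodes occurred in more than 1 mouse. Markers bore out the B cell label (Cd79a in 98.9% of cells) and the T cell labels (Cd3d in 91.1% of CD4+ and 95.8% of CD8+ cells, Cd8b1 in 93.2% of CD8+ and 7.65% of CD4+ cells), while Cd4 itself was found in 44% of the cells labelled CD4+ and 0.667% of those labelled CD8+. They did not bear out the plasmablast label. Jchain was found in 0% and Prdm1 in 1.48% of these cells, Mzb1 in 41.8% against 42.5% of B cells, and Cd79a in 99.2%, so they are called cells labelled plasmablasts here. The markers of the NK label were mixed. Nkg7 was found in 97.3% of these cells (70.0% of CD8+ cells) and Klre1 in 16.4%, but Ncr1, Klrb1c and Gzma in 1.37% each, and the T cell gene Cd3d in 98.6%. Most of these cells also held the markers of the CD8+ label, Cd8b1 in 74.0% and Cd8a in 63.0% (59.5% of CD8+ cells). The cells labelled NK numbered 13 to 22 per mouse and entered no test of genes. Each library came from 1 mouse. The gene tests of treatment measure against the spread between mice. Those of the cell type contrasts and of the interaction of treatment and cell type fit a level for each mouse, and measure against the spread that remains.

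Together the 93 genes held 6.69% of all UMIs although they were 0.616% of the genes. The 13 mitochondrial genes held 1283108 UMIs (5.42%) and the 80 nuclear genes 302552 UMIs (1.28%). The median cell carried 207 mitochondrial and 48 nuclear UMIs of the set. The study kept cells with at most 10% mitochondrial UMIs and 200 to 2500 detected genes, and this limit acts directly on the mitochondrial members, so cells with the highest levels were removed before any value below was taken.

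The mitochondrial genes are shown first because some of them overlap on the genome, which bears on which UMI counts can be told apart. In the annotation 4 pairs share bases: mt-Atp8 and mt-Atp6 (43 bases), mt-Nd4l and mt-Nd4 (7 bases), mt-Atp6 and mt-Co3 (1 base), and mt-Nd5 and mt-Nd6, which lie on opposite strands (14 bases). The pairs printed here are those known to share one transcript. They are given on GRCm38 (mm10) with the GENCODE vM21 annotation, plus strand, 15 bases on either side, and the capitals mark the bases that belong to both genes.
mt-Atp8 and mt-Atp6, chrM:7912-7984 (overlap chrM:7927-7969): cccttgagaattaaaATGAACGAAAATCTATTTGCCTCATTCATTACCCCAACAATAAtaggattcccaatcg
mt-Nd4l and mt-Nd4, chrM:10152-10188 (overlap chrM:10167-10173): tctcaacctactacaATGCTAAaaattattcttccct
All bases of both overlaps are coding sequence, and the 3′ end of each shared transcript lies in the downstream gene. In B cells mt-Atp6 had 28.2 ± 5.08 UMIs per mt-Atp8 UMI and mt-Nd4 had 5.7 UMIs per mt-Nd4l UMI (mean, SD, n = 4 mice). In the other types the first ratio ran from 25.4 to 32.5 and the second from 4.99 to 5.86. How the counting divided UMIs within a pair was not tested, and mt-Atp8 and mt-Nd4l counts are uncertain for that reason.

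The 13 genes differed over more than 2 orders of magnitude in captured UMIs, which in a 3′ assay count transcript ends and were not divided by gene length. The complex IV subunits mt-Co3, mt-Co2 and mt-Co1, which form the catalytic core of cytochrome c oxidase, had 249262 UMIs (19.4% of mitochondrial member UMIs), 184478 UMIs (14.4% of mitochondrial member UMIs) and 184465 UMIs (14.4% of mitochondrial member UMIs). The ATP synthase subunit mt-Atp6, part of the proton channel, had 240011 UMIs (18.7% of mitochondrial member UMIs). These 4 genes came before mt-Nd2 with 104324 UMIs (8.13% of mitochondrial member UMIs) and mt-Cytb, the cytochrome b of complex III, with 96161 UMIs (7.49% of mitochondrial member UMIs). The other complex I genes followed, with 74187 UMIs (5.78% of mitochondrial member UMIs) for mt-Nd1, 61310 UMIs (4.78% of mitochondrial member UMIs) for mt-Nd4, 46060 UMIs (3.59% of mitochondrial member UMIs) for mt-Nd3 and 20699 UMIs (1.61% of mitochondrial member UMIs) for mt-Nd5. The 3 lowest were mt-Nd4l with 11298 UMIs (0.881% of mitochondrial member UMIs), mt-Atp8 with 8851 UMIs (0.69% of mitochondrial member UMIs) and mt-Nd6 with 2002 UMIs (0.156% of mitochondrial member UMIs). mt-Nd6 (chrM:13552-14070) is the only member on the minus strand of chrM, and a UMI of it was found in 1540 of 5794 cells, against 5794 cells for mt-Co3.

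The make-up of the mitochondrial UMIs was similar between cell types but not identical. mt-Nd2 made up 8.03% of them in B cells, 8.43% in CD4+ and 8.6% in CD8+ T cells, 9.16% in cells labelled NK, but 6.54% in cells labelled plasmablasts (means of 4 mice). mt-Nd6 made up 0.172%, 0.145%, 0.114%, 0.075% and 0.176% in the same order. It had only 2002 UMIs in all cells, and the value of the cells labelled NK rests on 13 to 22 cells per mouse. mt-Atp6 stayed between 18% and 19.5% in all 5 types.

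**Figure D1:**
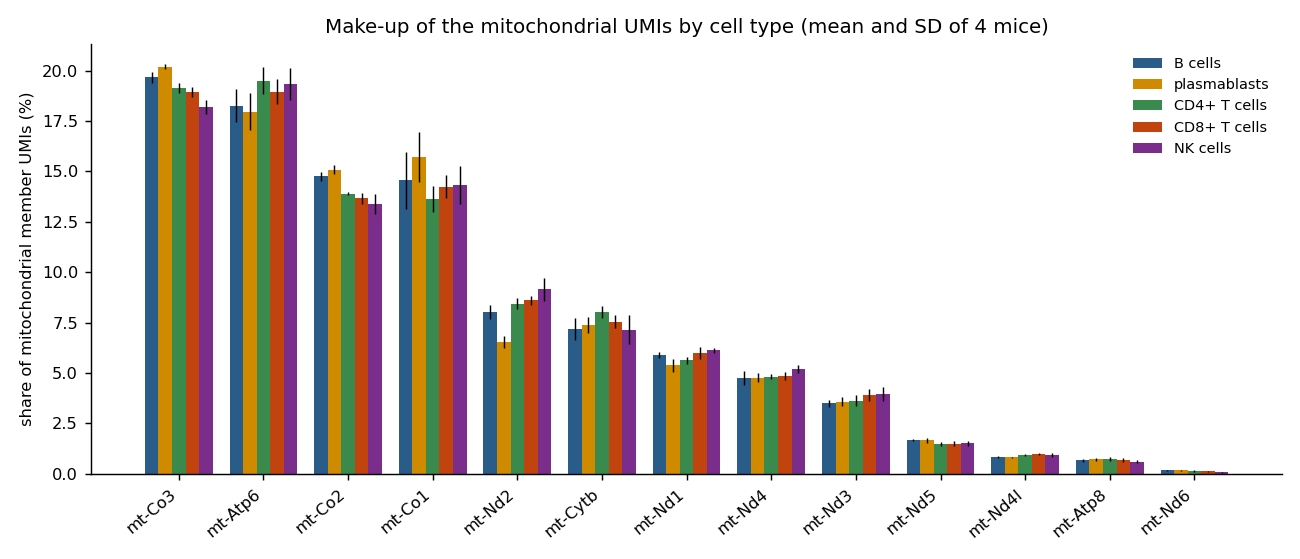
Share of each of the 13 mitochondrial genes in the UMIs of all 13, in percent, by cell type. Bars are means and lines the SD of 4 mice. mt-Co3 and mt-Atp6 lead in every type, and mt-Nd2 is lowest in cells labelled plasmablasts (6.54%).

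Among the 80 nuclear genes the highest of each complex were Atp5e in complex V (15060 UMIs, the epsilon subunit of the ATP synthase central stalk), Uqcrh in complex III (12362 UMIs, the hinge protein), Cox4i1 in complex IV (11701 UMIs, a regulatory subunit), Ndufb1-ps in complex I (9029 UMIs) and Sdha in complex II (2021 UMIs, the flavoprotein that oxidises succinate). Ndufb1-ps is annotated as a non-coding RNA in GENCODE vM21 (chr12:101968090-101977068). Complex II stood lowest as a group. Sdhb, its iron-sulfur subunit, had 1841 UMIs, and the membrane anchors Sdhd and Sdhc had 787 and 619 UMIs. The 3 isoform genes that other tissues use were close to 0 over all 5794 cells. Cox7a1 had 2 UMIs in 2 cells, Cox6a2 30 UMIs in 10 cells and Cox6b2 32 UMIs in 30 cells. Cox6a2 was thus held by few cells with several UMIs among them. These 3 genes were not tested.

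Isoform pairs gave a simple picture of levels, as CPM, the UMIs of a gene scaled to an equal total for each mouse and type (mean ± SD of 4 mice). The 3 genes for the c subunit of the ATP synthase rotor, which encode the same mature protein, were led by Atp5g2 in every type. It was at 337 ± 24 CPM in B cells and 383 ± 16.4 CPM in CD4+ T cells, against 112 ± 8.19 and 146 ± 15.4 CPM for Atp5g1, and 95.4 ± 6.06 and 132 ± 12.8 CPM for Atp5g3. In complex IV, Cox6a1 was at 128 CPM in B cells and Cox6a2 at 1.45, Cox6b1 at 203 and Cox6b2 at 1.68, and Cox7a2 at 198 and Cox7a1 at 0.104 CPM. Cox7a2l, a relative of Cox7a2, was at 468 ± 27.6 CPM in CD4+ and 493 ± 30.3 CPM in CD8+ T cells against 304 ± 15.3 CPM in B cells and 271 ± 34.3 CPM in cells labelled plasmablasts. Ndufa4, now counted with complex IV by many authors, lay between 184 and 246 CPM in the 5 types.

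Nuclear members have no shared genome location, so their promoters are the sequence they could have in common. NRF1 is a transcription factor known to bind promoters of respiratory chain genes, and 4 windows that hold its type of motif are shown for the members with the most UMIs whose first match lies, with 20 bases on each side, before the transcription start. Promoters were RefSeq entries on GRCm38.p6, 250 bases before to 50 bases after the start, and the capitals mark the match.
Atp5g2, chr15:102671060-102671109, minus strand: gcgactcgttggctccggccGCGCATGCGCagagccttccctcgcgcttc
Atp5h, chr11:115420032-115420080, minus strand: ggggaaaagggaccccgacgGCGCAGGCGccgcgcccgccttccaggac
Atp5k, chr5:108434420-108434469, minus strand: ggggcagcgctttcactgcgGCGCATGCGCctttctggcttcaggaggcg
Cox6a1, chr5:115349091-115349140, minus strand: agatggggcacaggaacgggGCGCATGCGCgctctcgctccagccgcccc
The matches end 32, 132, 40 and 152 bases before the start, in this order. An entry was found for 65 of the 80 nuclear members, and not, among others, for Atp5mpl, Cox4i1, Ndufb1-ps, Sdhc and Uqcrq. The letters GCGCANGCG occurred for 20 of these 65 members (30.8%), against 14.3% of 11018 genes in the count table and 7.03% of all 27025 symbols with an entry. A match on either strand in any entry of a symbol was counted. The sets were not matched for expression or base composition. Overlapping matches are capitalised together. A YY1-type motif, ANATGGCGG, occurred in 7 of 65 (10.8%) against 4.43% and 2.19%, and an ETS-type motif, CCGGAAGTG, in 2 of 65 (3.08%) against 4.74% and 2.25%. For 1 member 2 or more of these motifs were found, not necessarily in the same entry. The NRF1-type letters were found for 12 of 37 members (32.4%) called higher in CD4+ T cells than in B cells and for 8 of 28 other members (28.6%). These are matches of letters, and no binding was measured.

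The first comparison asked how the mitochondrial and nuclear members differed between cell types within the same mice. Summed over all cells of a label, B cells gave more of their UMIs to the mitochondrial members and fewer to the nuclear members than T cells did. Single clusters of these labels overlapped, as given further below. Mitochondrial members took 5.68, 5.82, 5.61 and 5.43% of UMIs in B cells and 4.95, 5.09, 4.81 and 4.89% in CD4+ T cells, with means of 5.63 ± 0.16 and 4.93 ± 0.118% (SD, n = 4). Every mouse was lower in CD4+ T cells, by 0.702 percentage points on average, with a two-sided exact sign-flip permutation p of 0.13, the smallest that 4 mice allow. Nuclear members took 1.18, 1.25, 1.11 and 1.2% in B cells and 1.38, 1.37, 1.28 and 1.35% in CD4+ T cells, with every mouse higher in CD4+ T cells by 0.161 points on average (exact p = 0.13). There were thus 4.76 ± 0.233 mitochondrial UMIs per nuclear UMI of the set in B cells and 3.66 ± 0.072 in CD4+ T cells, and the 4 mice of each type did not overlap.

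CD8+ T cells lay between them for the mitochondrial members, with 5.3, 5.46, 5.18 and 4.95%, above CD4+ T cells by 0.291 points in 4 of 4 mice and below B cells in 4 of 4 mice (exact p = 0.13 each). For the nuclear members CD8+ T cells had 1.39, 1.4, 1.31 and 1.3%, and the difference to CD4+ T cells was 0.00452 ± 0.0366 points (SD of 4 differences, from -0.0487 to 0.0296, exact p = 0.875). The cells labelled plasmablasts had the highest mitochondrial share, 6.14, 6.44, 6.03 and 5.59%, and 1.38, 1.38, 1.23 and 1.25% for the nuclear members, both above B cells in 4 of 4 mice (exact p = 0.13). In the cells labelled NK the 2 shares were 5.55, 5.58, 5.88 and 5.29% and 1.5, 1.48, 1.35 and 1.33%. By Clopper-Pearson 95% intervals, which cover counting error only, the widest of these mitochondrial values was 5.58% (5.43 to 5.73%) from 13 cells.

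A share is set by the rest of the library as well. Genes for cytosolic ribosomal proteins took 25.5% of UMIs in B cells, 33.5% in CD4+ and 37.7% in CD8+ T cells, and 19.1% in cells labelled plasmablasts. Of the UMIs outside these genes, mitochondrial members took 7.56%, 7.42%, 8.39% and 7.49% in the same order, and nuclear members 1.59%, 2.02%, 2.17% and 1.62%. On that base the difference of CD4+ T cells to B cells shrank from -0.702 to -0.145 points, and in untreated mouse 2 the shares were 7.274% (CD4+) and 7.277% (B cells). The mitochondrial share of CD8+ T cells stood above that of B cells by 0.834 points instead of below. For cells labelled plasmablasts the mean difference to B cells was -0.0715 points. Its sign varied between mice (7.586, 8.063, 7.475 and 6.831 against 7.591, 7.949, 7.423 and 7.277%). The order of the nuclear means was kept. Untreated mouse 2 went against it, with nuclear shares of 1.532% in cells labelled plasmablasts and 1.612% in B cells. The nuclear share of CD8+ T cells now exceeded that of CD4+ T cells in every mouse (2.252, 2.322, 2.066 and 2.047 against 2.074, 2.11, 1.904 and 2.011%). The deposited types were named from clusters of these same counts, so no contrast between them is independent of the counts.

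**Figure D2:**
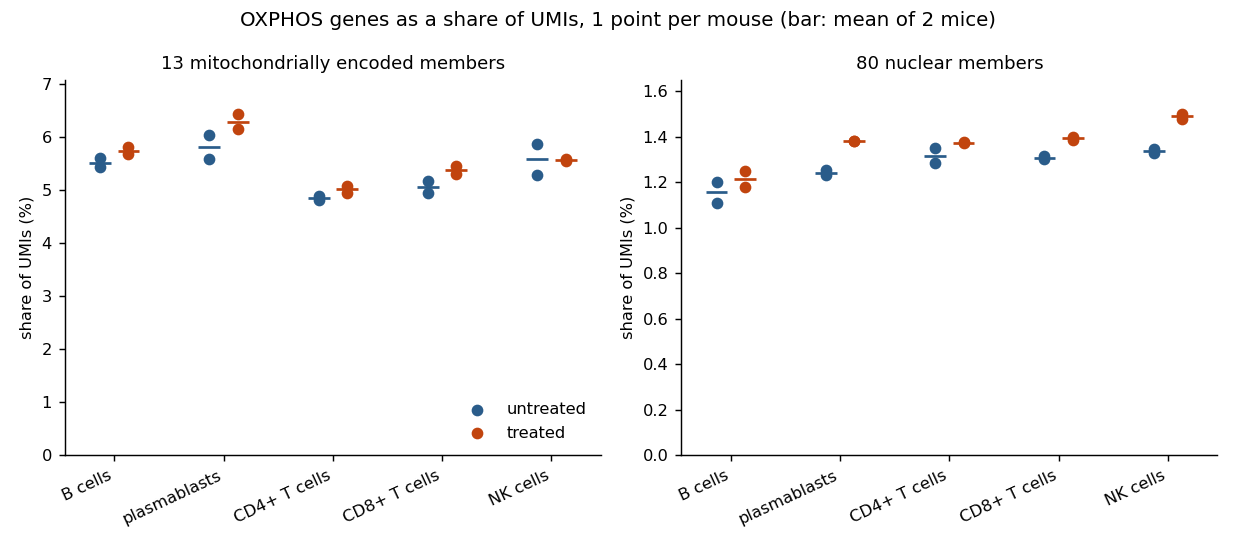
Percent of UMIs in mitochondrial members (left) and nuclear members (right) by cell type, each point a mouse, blue untreated and orange treated, and each line the mean of 2 mice. B cells lie above CD4+ T cells on the left (means of 4 mice 5.63 against 4.93%) and below them on the right (1.19 against 1.35%).

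Gene by gene, the calls between CD4+ T cells and B cells differed between nuclear and mitochondrial members, though not every member was called. Of the 9229 genes tested with edgeR's quasi-likelihood test, 25.7% were called higher and 26.4% lower in CD4+ T cells at an adjusted p under 0.05. Of the 77 nuclear members tested, 47 were called higher and 3 lower, with a median log2 difference of 0.27 beside 0.00 for all genes. Of the 13 mitochondrial members, 0 were called higher and 7 lower, with a median of -0.10, and 3 had a positive difference without a call. With DESeq2 the counts were 43 higher and 3 lower for the nuclear and 0 and 6 for the mitochondrial members. With summed UMIs as the only scaling they were 40 and 3 for the nuclear and 0 and 10 for the mitochondrial members. Cytosolic ribosomal protein genes were called higher in 79 of 81 cases (median 0.46). Their part in these differences was not tested.

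In complex I, 20 of 37 nuclear members were called higher in CD4+ T cells and 2 lower, while 4 of the 7 mitochondrial members were called lower. Ndufv3, an accessory subunit of the NADH-oxidising module (chr17:31520115-31531331), was at 141, 118, 125 and 118 CPM in CD4+ T cells and 72.1, 79.2, 69.1 and 66 CPM in B cells, here scaled by the trimmed mean of M values (TMM). All 4 CD4+ values lay above all 4 B cell values, a 1.75-fold difference (log2 difference 0.81 ± 0.09, SE, adjusted p = 2.64e-12). Ndufs4, another accessory subunit of the matrix arm, was 1.52-fold higher (log2 difference 0.61 ± 0.07, SE, adjusted p = 2.42e-11), at 195, 199.6, 211 and 189 against 128, 139, 140.2 and 114 CPM. In the opposite direction stood Ndufs8, an iron-sulfur core subunit, at 45, 48.1, 41.3 and 48.5 CPM in CD4+ T cells and 66.7, 78, 57.2 and 65.6 CPM in B cells (log2 difference -0.56 ± 0.12, SE, adjusted p = 6.24e-05), and Ndufb1-ps (log2 difference -0.34 ± 0.06, SE, adjusted p = 3.40e-06). Among the mitochondrial genes of complex I, mt-Nd6 and mt-Nd5 differed most, with log2 difference -0.39 ± 0.10, SE, adjusted p = 5.24e-04 and log2 difference -0.30 ± 0.05, SE, adjusted p = 1.61e-07. mt-Nd5 was at 736, 863, 680.1 and 770.3 CPM in CD4+ T cells and 931, 1045, 893 and 891 CPM in B cells, lower in every mouse. mt-Nd1 (log2 difference -0.19) and mt-Nd4 (-0.10) were also called lower. mt-Nd2 (-0.05), mt-Nd3 (-0.07) and mt-Nd4l (0.03) did not pass.

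In complex II none of the 4 genes passed, with log2 differences from 0.06 to 0.25. Sdha was at 104, 81.6, 85.3 and 84.6 CPM in CD4+ T cells and 91.3, 86.4, 79.1 and 84.6 CPM in B cells, and the 2 sets of values overlapped. In complex III, 6 of 8 nuclear members were called higher in CD4+ T cells. Uqcrh was at 590.0, 664, 538 and 609.7 CPM against 454, 497, 459.6 and 446 CPM in B cells (log2 difference 0.37 ± 0.05, SE, adjusted p = 1.17e-08), and Uqcrq, a small ubiquinone-binding subunit, was 1.52-fold higher. The mitochondrial mt-Cytb did not pass (log2 difference 0.04 ± 0.04, SE, adjusted p = 0.373).

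In complex IV all 3 mitochondrial members were called lower in CD4+ T cells, while 6 of 11 nuclear members were called higher and 1 lower. mt-Co1, the subunit that reduces oxygen, was at 6718, 7586, 6329.8 and 7119 CPM in CD4+ T cells and 7549, 9188, 7067 and 8443 CPM in B cells (log2 difference -0.21 ± 0.03, SE, adjusted p = 2.18e-07). The 4 mice differed in level, and within each mouse the CD4+ value was lower. mt-Co2 and mt-Co3 gave log2 differences of -0.21 and -0.16. Of the nuclear genes, Cox7a2l was at 518, 488, 481 and 442 against 308, 296, 307 and 282 CPM (log2 difference 0.70 ± 0.06, SE, adjusted p = 1.28e-17) and Cox4i1 at 559.6, 592, 522 and 521 against 439, 485, 416 and 428 CPM (log2 difference 0.31 ± 0.05, SE, adjusted p = 9.52e-07). Both were higher in CD4+ T cells in every mouse. Cox8a, one of the smallest subunits, went the other way (log2 difference -0.28 ± 0.06, SE, adjusted p = 2.21e-05).

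Complex V had the most even pattern, with 15 of 17 nuclear members called higher in CD4+ T cells and none lower, and neither mitochondrial member called. Atp5mpl, a small membrane proteolipid, was at 309, 377, 288 and 326 CPM in CD4+ T cells and 201, 228, 191 and 197 CPM in B cells (log2 difference 0.67 ± 0.07, SE, adjusted p = 2.93e-14). Atp5h, subunit d of the peripheral stalk, was 1.55-fold higher, at 436, 463, 394 and 397 against 266, 279, 262 and 283 CPM (log2 difference 0.63 ± 0.06, SE, adjusted p = 6.22e-15). In both genes every CD4+ value lay above every B cell value. Atp5e, the highest nuclear member, did not pass (log2 difference 0.08 ± 0.05, SE, adjusted p = 0.196), nor did mt-Atp6 (-0.03) and mt-Atp8 (0.02).

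**Figure D3:**
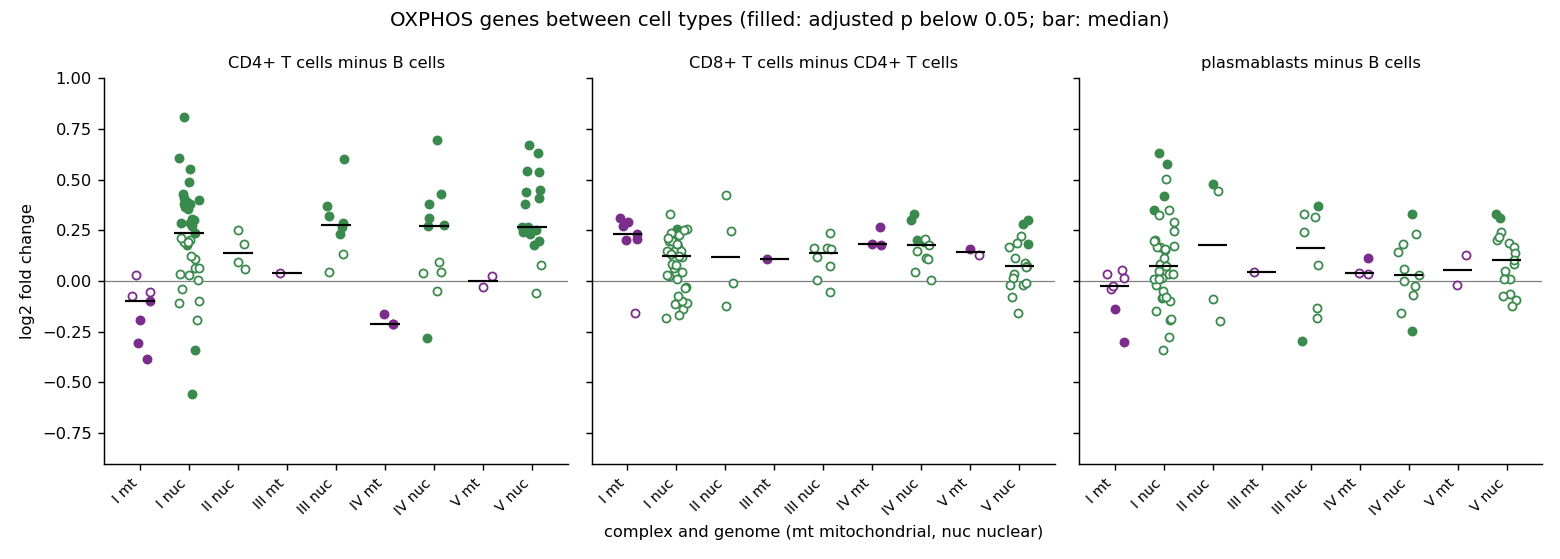
Log2 differences of the 90 tested members for each of 3 cell type contrasts, by complex and genome, mitochondrial members in purple and nuclear members in green. Filled points passed an adjusted p under 0.05, and the black line is the median of each group. In CD4+ T cells minus B cells the nuclear members lie mostly above 0 (47 of 77 called higher) and the mitochondrial members mostly below (7 of 13 called lower).

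Between CD8+ and CD4+ T cells most mitochondrial genes were called higher in CD8+ T cells, while the share of nuclear members called higher was near that of all genes. Of all genes, 6.56% were called higher and 5.1% lower in CD8+ T cells. Of the 13 mitochondrial members, 11 were called higher (median log2 difference 0.20), the exceptions being mt-Atp8 and mt-Nd6. Of the 77 nuclear members 8 (10.4%) were called higher (median 0.12) and 0 lower. mt-Nd3 was at 2181, 2501, 2147 and 2303 CPM in CD8+ and 1683, 2006, 1718 and 1969 CPM in CD4+ T cells (log2 difference 0.31 ± 0.04, SE, adjusted p = 1.20e-08). mt-Nd1 was at 3576, 3567, 3605 and 3252 against 2904, 2924, 2848 and 2756 CPM (log2 difference 0.29 ± 0.04, SE, adjusted p = 2.99e-09). Each was higher in CD8+ T cells in 4 of 4 mice, and for both genes the 2 sets of values did not overlap. The nuclear genes called were Cox8a, Cox5a, Cox6c and Cox7a2l of complex IV, Atp5g1, Atp5g2 and Atp5e of complex V, and Ndufa13 of complex I. Cox8a was at 526, 492, 455 and 467 against 419, 390.2, 353 and 378 CPM (log2 difference 0.33 ± 0.07, SE, adjusted p = 6.67e-05), and Cox5a at 156, 163, 136 and 149.7 against 131, 131, 104 and 123 CPM (log2 difference 0.30 ± 0.10, SE, adjusted p = 0.0288).

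These counts depended on the scaling, which is stated here because cytosolic ribosomal protein genes differed as well, with 77 of 81 called higher in CD8+ T cells (median 0.31). With summed UMIs as the only scaling, the median of all genes moved from -0.01 to -0.12, the mitochondrial median was 0.08 with 4 genes called higher (mt-Nd1, mt-Nd2, mt-Nd3 and mt-Co1), mt-Cytb changed sign to -0.01, and the nuclear median was -0.00 with 1 gene called higher (Cox8a) and 2 lower (Ndufa3 and Atp5a1). Without the mouse as a block, 4 mitochondrial and 2 nuclear members were called higher. The nuclear count was 3, 2 and 2 without treated mouse 1, treated mouse 2 and untreated mouse 1. The part of the ribosomal genes in these differences was not tested.

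Cells labelled plasmablasts differed from B cells in few members. Of all genes tested, 8.53% were called higher and 8.09% lower. Of 77 nuclear members 9 were called higher and 2 lower (median 0.08), and of 13 mitochondrial members 1 higher and 2 lower (median 0.03). In complex I, Ndufs8 was at 101, 84.5, 97.6 and 129 CPM in cells labelled plasmablasts and 66.7, 78, 57.2 and 65.6 CPM in B cells (log2 difference 0.58 ± 0.14, SE, adjusted p = 0.00181), without overlap. Ndufb6, a membrane arm subunit, was at 71, 52.6, 45.5 and 58.4 against 40.1, 41.3, 32.4 and 35.2 CPM (log2 difference 0.63 ± 0.18, SE, adjusted p = 0.00839). In complex II, Sdhb was at 114, 101, 87.8 and 108 against 68.4, 84.5, 70.1 and 76.1 CPM (log2 difference 0.48 ± 0.13, SE, adjusted p = 0.00526), the only call in that complex in any contrast. Uqcrq was called higher and Uqcrh lower within complex III, with log2 differences of 0.37 and -0.30. Cox7a2l was called lower (-0.25). Ndufs5 was called higher (0.42) although only 3 of 4 mice showed it. mt-Nd2 was at 3703, 3686, 3645 and 3441 CPM against 4684, 4618, 4424 and 4053 CPM in B cells, lower in every mouse (log2 difference -0.30 ± 0.04, SE, adjusted p = 1.70e-09), mt-Nd1 was also lower (-0.14) and mt-Co1 was higher (0.11).

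The scaling moved these counts as well. With summed UMIs alone 23 nuclear members were called higher and 1 lower, and 8 mitochondrial members higher and 1 lower. Without treated mouse 1 the nuclear count was 2 higher, and mt-Co1 was not called without treated mouse 1, treated mouse 2 or untreated mouse 1. Cytosolic ribosomal protein genes were called lower in 78 of 81 cases (median -0.48). This contrast and the one of CD4+ T cells share the B cells, so their values are not independent.

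Genes that build or serve the pathway but are no subunits in the set were counted in the same way for CD4+ T cells and B cells, to be read beside the 25.7% of all genes called higher and the 26.4% called lower. Of 40 assembly factors tested, 9 were called higher and 3 lower (median 0.20). Cox10, which makes the heme of complex IV, was at 48.1 ± 5.22 against 20.4 ± 2.5 CPM (SD, n = 4), and Sdhaf1, which inserts the iron-sulfur clusters of complex II, at 95.9 ± 5.76 against 63.7 ± 2.95 CPM. Of 21 genes of mitochondrial gene expression 4 were called higher and 5 lower. Polg2, the accessory subunit of the mitochondrial DNA polymerase, was at 49.8 ± 4.12 against 20.6 ± 6.37 CPM, Ppargc1b, a coactivator of mitochondrial biogenesis, at 15.1 ± 3.51 against 7.43 ± 1.74 CPM, and its relative Ppargc1a at 0.122 ± 0.245 against 8.58 ± 3.25 CPM, lower in CD4+ T cells. Of 13 genes of the tricarboxylic acid cycle 2 were called higher and 2 lower, with Fh1 (fumarase) at 13.3 ± 3.88 against 31.8 ± 2.55 CPM. Of 77 mitochondrial ribosomal protein genes 25 were called higher and 3 lower, led by Mrpl33 at 136 ± 7.48 against 68 ± 4.04 CPM, and of 81 cytosolic ones 79 and 1. Atpif1, the inhibitor of ATP synthase, which the rule leaves out, was at 57.6 ± 5.43 against 111 ± 6.85 CPM, lower in CD4+ T cells, while the electron carrier Cycs was at 63.8 ± 8.97 against 49.3 ± 1.94 CPM.

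Between CD8+ and CD4+ T cells, where 6.56% of all genes were called higher and 5.1% lower, 1 of 40 assembly factors was called higher (Nubpl) and 1 lower (Sdhaf1, 48.4 ± 9.03 against 95.9 ± 5.76 CPM), 1 gene of mitochondrial gene expression lower (Polg2), none of the tricarboxylic acid cycle and 2 of 77 mitochondrial ribosomal protein genes higher. Between cells labelled plasmablasts and B cells, where 8.53% of all genes were called higher and 8.09% lower, 1 of 40 assembly factors was called higher (Ecsit) and 3 lower (Cox11, Sdhaf1 and Cox17), 1 gene of mitochondrial gene expression lower (Nrf1, 94.9 ± 24.6 against 123 ± 8.95 CPM), none of the tricarboxylic acid cycle, and 5 of 77 mitochondrial ribosomal protein genes higher. Sdhaf1 was thus higher in CD4+ T cells than in each of the other 2 types it was compared with.

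The 12 deposited clusters showed that the shares also varied within a cell type. They are described with no test, since the clusters were drawn from the same counts. Of the B cell clusters, cluster 2 had 5.11% mitochondrial and 0.992% nuclear member UMIs, cluster 0 had 5.78% and 1.2%, cluster 1 had 6.17% and 1.45%, and cluster 10 had 6.53% and 1.36% (UMIs pooled over 4 mice). Both shares were lowest in cluster 2, which also had the lowest ribosomal protein share of the 3 large B cell clusters, 20.1% against 32.4% in cluster 1. The median cell of cluster 2 had 4244 UMIs and that of cluster 1 had 2683. Among the CD4+ T cell clusters, cluster 3 had 5.25% and 1.43%, cluster 5 had 4.47% and 1.2%, cluster 7 had 5.26% and 1.37%, and cluster 8 had 4.58% and 1.46%. The B cell and CD4+ clusters thus overlapped. B cell cluster 1 had a higher nuclear share than CD4+ cluster 5, and B cell cluster 2 a lower mitochondrial share than CD4+ clusters 3 and 7. The part of the cluster mix in the differences between types was not tested. Cluster 8 combined a low mitochondrial share with a high nuclear share. Its nuclear share was the highest of the 12 clusters in 2 of 4 mice, and ran from 1.37 to 1.51% over the mice, against 1.39 to 1.47% in cluster 1. Mitochondrial UMIs per nuclear UMI ran from 3.14 in cluster 8 to 5.15 in cluster 2. The CD8+ cluster 4 had 5.24% and 1.35%, the clusters 6 and 9 of cells labelled plasmablasts 6.18% and 6.07% mitochondrial with 1.36% and 1.24% nuclear, and cluster 11, labelled NK, 5.58% and 1.43%.

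**Figure D4:**
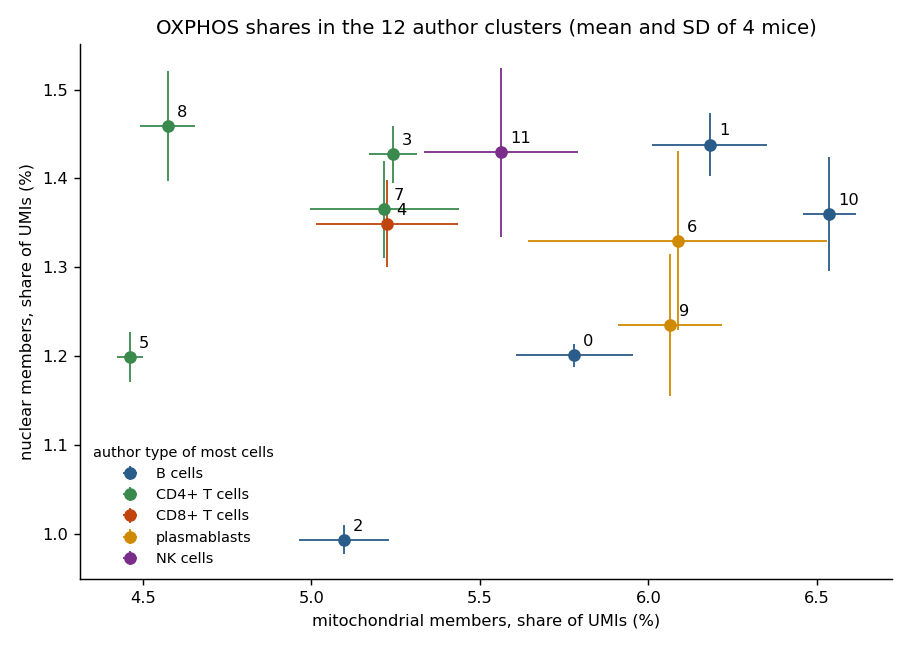
Percent of UMIs in nuclear members (y axis) against percent in mitochondrial members (x axis) for the 12 deposited clusters, as mean and SD of 4 mice, coloured by the label of most cells. B cell cluster 2 lies lowest on the y axis (0.992% with UMIs pooled) and CD4+ T cell cluster 8 is among the highest (1.46%).

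The second comparison asked whether the members differed between treated and untreated mice within each cell type. No member passed the test across all genes in any type, while most had a positive log2 fold change. The treated mice gave 5.68 and 5.82% of B cell UMIs to the mitochondrial members, the untreated mice 5.61 and 5.43%. CD4+ T cells had 4.95 and 5.09% against 4.81 and 4.89%, and CD8+ T cells 5.3 and 5.46% against 5.18 and 4.95%. Cells labelled plasmablasts had 6.14 and 6.44% against 6.03 and 5.59%. With the types in the order B, CD4+, CD8+ and labelled plasmablasts, which is kept below, both treated mice lay above both untreated mice, by 4.16, 3.48, 6.17 and 8.28% of the untreated mean (two-sided exact permutation p = 0.333 each, the smallest that 2 against 2 mice allow). The types come from the same 4 mice and are not independent. Taken as the median over cells, the groups overlapped in CD8+ T cells (5.21 and 5.42 against 5.23 and 4.96%) and in cells labelled plasmablasts (6.11 and 6.42 against 6.18 and 5.72%), and stayed apart in the other 2 types. The differences of the means, 0.229, 0.169, 0.313 and 0.481 points, depended on single mice. They fell to 0.142, 0.198 and 0.259 points in B cells, CD8+ T cells and cells labelled plasmablasts without untreated mouse 2, and in CD4+ T cells to 0.0984 points without treated mouse 2. With equal weight for clusters 0, 1 and 2 in each mouse, the B cell difference was lower still, at 0.0778 points. The part of the cluster mix was not tested. In the cells labelled NK, 13 to 22 per mouse, the mitochondrial share differed by -0.241% with overlapping mice.

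The nuclear share was higher in the treated mice by 4.35% in CD4+ and 6.53% in CD8+ T cells, and by 11% in cells labelled plasmablasts, without overlap (exact p = 0.333 each). In B cells the treated mice had 1.18 and 1.25% and the untreated mice 1.11 and 1.2%, which overlapped (exact p = 0.667). The nuclear difference of CD4+ T cells, 0.0574 points, was 0.0239 points without untreated mouse 1 and 0.0908 points without untreated mouse 2, and that of B cells, 0.0605 points, ran from 0.0131 points without untreated mouse 1 to 0.108 points without untreated mouse 2, with 0.026 and 0.095 points without treated mice 2 and 1. In cells labelled plasmablasts untreated mouse 1 stood apart in 5 red blood cell markers (Hba-a1, Hba-a2, Hbb-bs, Hbb-bt and Alas2), with a summed level of 3713 CPM against 13.7 to 113 CPM in the other mice. Without that mouse the difference of this type was 0.127 instead of 0.137 points for the nuclear and 0.703 instead of 0.481 points for the mitochondrial members. Mitochondrial UMIs per nuclear UMI differed by -1.21, -0.879, -0.338 and -2.52% in the 4 types, with overlapping mice. In the cells labelled NK they differed by -10.4%, with both treated mice below both untreated mice (exact p = 0.333), and the nuclear share by 11.4%. Ribosomal protein genes moved with them, being higher by 4.33, 4.88, 7.35 and 4.42%, without overlap in CD4+ and CD8+ T cells. The differences were uneven over the libraries. Treated mouse 1 exceeded untreated mouse 1, the deeper pair, by 0.0739 points in B cells, 0.139 in CD4+ and 0.118 in CD8+ T cells, and 0.112 in cells labelled plasmablasts, and treated mouse 2 exceeded untreated mouse 2, the shallower pair, by 0.385, 0.198, 0.507 and 0.851 points. For the nuclear members the deeper pair differed by 0.0734, 0.0934, 0.0732 and 0.148 points and the shallower pair by 0.0476, 0.0214, 0.0978 and 0.127 points. Whether depth plays a part was not tested.

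Across all genes, edgeR called 0% in B cells (0 of 9903) and 0% in CD4+ T cells (0 of 8680), while it called 0.0294% in CD8+ T cells (2 of 6798) and 0.0186% in cells labelled plasmablasts (1 of 5372), and 0 members in each. DESeq2 also called 0 members in every type. Unadjusted edgeR p-values fell under 0.05 for 3, 5, 6 and 8 of 77, 77, 77 and 76 nuclear members in the 4 types. For the 13 mitochondrial members the counts were 0, 1, 6 and 0. Among all genes they were 460 of 9903, 416 of 8680, 574 of 6798 and 365 of 5372. All 13 mitochondrial members had a positive log2 fold change in each type, with medians of 0.11, 0.09, 0.18 and 0.17, and 66, 61, 69 and 61 of 77, 77, 77 and 76 nuclear members were positive, with medians of 0.11, 0.12, 0.17 and 0.20. Of all genes 50.8, 51.1, 50.6 and 50.4% were positive, with medians of 0.00, 0.01, 0.01 and 0.00. The counts of positive members rested in part on single mice. Without treated mouse 2, 9, 10, 11 and 12 mitochondrial members were positive, and 49 of 77 nuclear members in B cells. With summed UMIs as the only scaling 12, 11, 10 and 11 mitochondrial members were positive, and the mitochondrial medians were 0.07, 0.04, 0.08 and 0.13.

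Both treated mice lay above both untreated mice for 7, 7, 8 and 5 of the 13 mitochondrial members, and for 27 of 77, 36 of 77, 43 of 77 and 34 of 76 nuclear members. Among all genes the same was true of 17.9, 18.4, 20.2 and 19.1%, the types being in the order used so far. Both treated mice lay below for 0 mitochondrial members in each type and for 1, 5, 2 and 2 nuclear members, beside 17.1, 17, 18.3 and 17.7% of all genes. Genes with short genomic spans had a like offset. In the shortest 20% of genes with an annotated span, members left out, the median log2 fold change was 0.11, 0.11, 0.16 and 0.16. Of the nuclear members, 44, 48, 52 and 52 fell in that class, of 76, 76, 76 and 75. The part of gene span in the members' values was not tested.

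**Figure D5:**
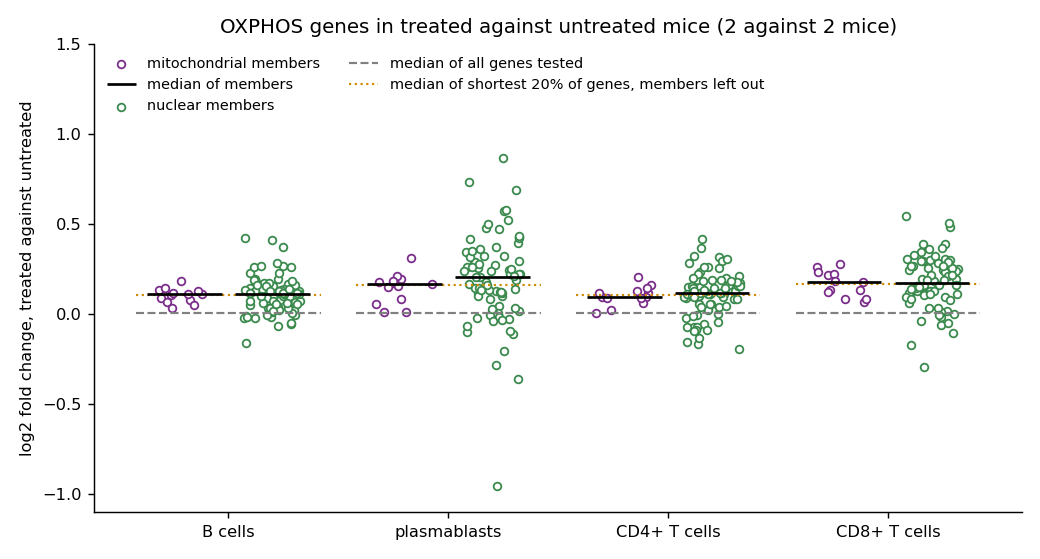
Log2 fold change of treated against untreated mice for each tested member in 4 cell types, mitochondrial (purple) and nuclear (green) members side by side. Black lines are the median of each set, the grey dashed line that of all genes tested, and the orange dotted line that of the shortest 20% of genes with members left out. The 13 mitochondrial members lie above 0 in every type, and no member passed an adjusted p under 0.05.

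The members with the smallest unadjusted p in each direction are given as values, since none was called. In B cells Uqcrb, a small complex III subunit (chr13:66900617-66905378), was at 113 and 132 CPM after treatment and 83.1 and 99 CPM without it (log2 fold change 0.42 ± 0.13, SE, adjusted p = 0.934). Ndufa12 and Cox5b, accessory subunits of complexes I and IV, had log2 fold changes of 0.37 and 0.27 and did not overlap between groups. The lowest were Sdhc (-0.16), Ndufb7 (-0.07) and Ndufa10 (-0.05). In CD4+ T cells Atp5o, which links the stalk of ATP synthase to its head, was at 149 and 149 CPM after treatment and 115 and 124 CPM without it (log2 fold change 0.32 ± 0.11, SE, adjusted p = 0.903), followed by Ndufs6 (0.37) and Atp5k (0.32). Ndufa12 (-0.19), Uqcrc2 (-0.16) and Ndufs3 (-0.17) were at the other end.

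In CD8+ T cells Ndufb10, of the complex I membrane arm, was at 123 and 136 CPM after treatment and 92.3 and 87.1 CPM without it (log2 fold change 0.54 ± 0.18, SE, adjusted p = 0.508). mt-Atp6 was at 10864 and 11018 CPM after treatment and 9945 and 8866 CPM without it (log2 fold change 0.22 ± 0.08, SE) and Atp5o at 156 and 160.3 CPM after treatment and 103 and 122 CPM without it (log2 fold change 0.48 ± 0.17, SE). In all 3 genes the treated mice lay above the untreated mice. Sdhc (-0.30), Ndufv2 (-0.17) and Ndufs4 (-0.10) had the smallest p among negative values. In cells labelled plasmablasts Ndufa2 was at 249 and 258 CPM after treatment and 177 and 164 CPM without it (log2 fold change 0.57 ± 0.19, SE, adjusted p = 0.668) and Ndufs3, a core subunit of complex I, at 96.4 and 105 CPM after treatment and 56.6 and 53.4 CPM without it (log2 fold change 0.86 ± 0.30, SE, adjusted p = 0.71). Cox8a was at 527 and 569 CPM after treatment and 381 and 431 CPM without it. Ndufs1, the largest iron-sulfur subunit of complex I, went the other way, at 31.6 and 19.7 CPM after treatment and 37.7 and 64.1 CPM without it (log2 fold change -0.96 ± 0.45, SE, adjusted p = 0.724), with Uqcrc1 (-0.36) and Ndufs8 (-0.28) after it. The largest of these differences rest on the 71 to 162 cells per mouse of this type.

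By complex, the nuclear medians in the treated mice ran in B cells from 0.09 in complex II to 0.13 in complex IV. CD4+ T cells ran from 0.11 in complex I to 0.15 in complex IV, and CD8+ T cells from 0.04 in complex II to 0.24 in complex V. In cells labelled plasmablasts they ran from 0.08 in complex III to 0.28 in complex II, where Sdhc was not tested. No order of the complexes held across the types. Sdha had log2 fold changes of 0.11, 0.15, 0.09 and 0.44 and Sdhd of 0.27, 0.41, -0.01 and 0.28 in the 4 types. A test of the interaction between treatment and cell type in B cells and CD4+ T cells called 0 of 90 members and 0.00986% of 10143 genes. Ndufa12 had the smallest member p, with -0.56 ± 0.21 between the 2 types (log2 scale, SE, adjusted p = 1 by edgeR).

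The other lists of the pathway gave 0 calls in each type. Their counts of positive genes are to be read beside the 50.8, 51.1, 50.6 and 50.4% of all genes that were positive. Of the assembly factors tested, 21, 26, 18 and 10 of 43, 41, 30 and 15 were positive, with medians of -0.02, 0.06, 0.07 and 0.09. For mitochondrial gene expression 9, 12, 7 and 2 of 22, 19, 16 and 9 were positive (medians -0.05, 0.05, -0.02 and -0.15), for the tricarboxylic acid cycle 8, 8, 7 and 9 of 13, 13, 12 and 12 (medians 0.04, 0.05, 0.15 and 0.23), and for the mitochondrial ribosome 50, 51, 54 and 30 of 77, 77, 72 and 50 (medians 0.06, 0.06, 0.18 and 0.12). Subunits and carriers outside the rule gave 3, 3, 4 and 1 of 4. The cytosolic ribosome gave 80, 79, 81 and 75 of 81 positive, with medians of 0.10, 0.12, 0.20 and 0.09. Surf1, a complex IV assembly factor, was at 19.1 and 20.3 CPM with plasma and 12.7 and 9.94 CPM without it in B cells (log2 fold change 0.81, adjusted p = 0.934). Nrf1 was at 78.1 and 94.1 against 139.6 and 128 CPM in cells labelled plasmablasts (log2 fold change -0.65, adjusted p = 0.71).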

How the data were processed

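PBMCs of 4 mice were sequenced with 10x Chromium 3′ v3.1 chemistry. The deposited table holds raw UMI counts per gene and cell, made by the authors with Cell Ranger 7.1.0 on mm10 and Seurat 4.3.0 (submitters' processing notes). Per the study's methods, ambient RNA was treated with SoupX, cells were kept with 200 to 2500 genes and at most 10% mitochondrial UMIs, and doublets were removed. The sources used here do not state whether the counts precede or follow SoupX, and no doublet caller was rerun. The deposited mitochondrial percent equalled the value recomputed from the table (within 1e-06) in 95 of 5794 cells, and the recomputed value was above 10% in 3 cells. Cell types and clusters are those deposited. 0 columns of values were left unused.

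For each mouse and type the UMI counts of its cells were added up and tested with edgeR 4.0.16 in R 4.3.3 (quasi-likelihood test, TMM scaling, filterByExpr, Benjamini-Hochberg adjustment over all genes tested, threshold 0.05), for types with at least 20 cells in every mouse. Cell type contrasts were fitted in one model with mouse as a block, because the same 4 animals gave every type, and treatment was fitted within each type. Member shares were tested by exact permutation over mice with scipy 1.17.1 in Python 3.11.15. DESeq2 1.42.0, other scalings, no filter, equal cell numbers, equal weights for clusters, no block and leaving out each mouse were alternatives. Scaling by total UMIs and shares outside ribosomal protein genes were added after seeing the data. The fits were tested on simulated counts. Genes were named by fixed rules: all mitochondrial and complex II members, isoform genes, the highest nuclear member per complex, the 5 called members with the largest difference per direction and contrast, and the 3 with the smallest p per direction and treatment comparison where none was called. The members and lists were chosen with earlier results of these data known. The study tested single cells, whereas sums per mouse were tested here because cells of 1 mouse are not replicates.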

Additional observations from a re-analysis of the deposited data

How the results depend on the processing

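In the treatment comparison 0 members were called under every alternative run, and the interaction of B cells and CD4+ T cells called 0. Leaving out each mouse in turn, the mitochondrial medians ran from 0.0204 to 0.13 in B cells, for CD4+ T cells from 0.0444 to 0.14, for CD8+ T cells from 0.11 to 0.22, and from 0.0508 to 0.22 in cells labelled plasmablasts, and the nuclear medians from 0.0425 to 0.16 (B cells), 0.0737 to 0.15 (CD4+) and 0.17 to 0.22 (CD8+). The lowest B cell value, 0.0204, was that without treated mouse 2, which gave 0.0598 in cells labelled plasmablasts, against 0.0508 without untreated mouse 2. Total UMI scaling gave nuclear medians of 0.0654 (CD4+), 0.0773 (CD8+) and 0.171 (labelled plasmablasts) and a mitochondrial one of 0.083 (CD8+). Equal cells gave 0.20 for the nuclear members of CD8+ T cells, and no filter 0.24 in cells labelled plasmablasts.

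For CD4+ T cells minus B cells, 37 to 47 nuclear members were called higher and 5 to 10 mitochondrial members lower under all alternatives. For CD8+ minus CD4+ T cells, mitochondrial members called higher numbered 4 without the replicate block and 4 with total UMI scaling. Nuclear members called higher numbered 2 without the block, 2 without a filter and 1 with total UMI scaling (2 lower), and 2 to 10 without single mice. The nuclear share difference was -0.00579 points as a median over cells and -0.00384 to 0.0223 without single mice. For cells labelled plasmablasts minus B cells, mitochondrial members called higher numbered 0 with DESeq2, without a filter or without the replicate block, and 8 with total UMI scaling. Those called lower numbered 1 without the block and 1 with total UMI scaling. Nuclear members called higher numbered 5 without a filter and 23 with total UMI scaling, and those called lower 1 without the block and 1 with total UMI scaling. Without single mice these counts ran from 0 to 1, 1 to 2, 2 to 9 and 1 to 2. Outside ribosomal protein genes the mitochondrial share difference was -0.145 points for CD4+ T cells minus B cells, -0.0715 points for cells labelled plasmablasts minus B cells and 0.834 points for CD8+ T cells minus B cells. The block changed no other count past the limits used.

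Of 390 recomputed contrast values of named genes 327 kept their direction and call, 62 were no longer called and 1 changed sign (mt-Cytb, -0.00893 with total UMI scaling, CD8+ minus CD4+). Of 239 treatment values 4 changed sign. These were Ndufb7 in B cells (0.0323 with equal cells and -0.23 to 0.12 without single mice, the highest without untreated mouse 2), Ndufs4 in CD8+ T cells (-0.28 to 0.0768, the highest without untreated mouse 1) and Uqcrc1 in cells labelled plasmablasts (-0.99 to 0.0268, the highest without treated mouse 2). The cause was not tested. With 2 mice per group the exact permutation test of a share cannot pass 0.05, and depth limits the low members, 3 of which had too few UMIs to test.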

Other observations

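In B cells mt-Co1 stood at 7727 and 9073 CPM in treated mice 1 and 2 and 7339 and 8647 CPM in untreated mice 1 and 2 of their own UMIs, and mt-Cytb at 4444 and 3915 CPM in treated mice 1 and 2 and 4207 and 3640.2 CPM in untreated mice 1 and 2. mt-Co1 was higher and mt-Cytb lower in the 2 shallower libraries, 1 of each group. The same held for mt-Co1 in CD4+ T cells, at 6499.5 and 7146 CPM in treated mice 1 and 2 and 6251 and 7003 CPM in untreated mice 1 and 2. It did not hold for mt-Co1 in CD8+ T cells (7387 and 8176 CPM in treated and 7109 and 7118 CPM in untreated mice 1 and 2). For mt-Cytb it did not hold in CD4+ T cells (4153 and 3940 against 3922 and 3816 CPM) or in cells labelled plasmablasts (4839 and 4670 against 4518 and 3882 CPM). Values of mt-Co1 in cells labelled plasmablasts and of mt-Cytb in CD8+ T cells are not given, so no count over the types is made. Whether depth plays a part was not tested.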
